A study of Mus musculus with 6 samples.

Results

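The 10 genes described here encode G protein-coupled receptors for thrombin and for lipids that activated platelets release. They were taken from the deposited count table by gene symbol, and all 10 were found among its 27098 genes. F2r, F2rl1 and F2rl2 encode the protease-activated receptors PAR1, PAR2 and PAR3. Lpar1, Lpar2, Lpar4 and Lpar6 encode receptors for lysophosphatidic acid (LPA), and S1pr1, S1pr2 and S1pr3 encode receptors for sphingosine-1-phosphate (S1P). The samples were whole ovaries of mice 3 days after birth, kept in DMEM/F12 medium with antibiotics. In the PRP group (3 libraries) the medium held 2% platelet-rich plasma for 2 h, and in the control group (3 libraries) it held none. The series text describes the plasma as human and activated with thrombin, while the sample labels say only PRP. The labels name no control with thrombin alone or with other plasma, and they do not give the strain of the mice or whether ovaries were pooled.

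Thrombin cuts the outer end of PAR1 and PAR3, and in PAR1 the new end folds back to switch the receptor on. PAR2 is cut mainly by trypsin-like proteases, and in mice PAR3 serves chiefly as a helper for PAR4 on platelets. LPA is made outside cells by the enzyme autotaxin, and S1P is made inside cells by sphingosine kinases, stored in platelets and red cells and carried in plasma. Receptors of these families signal through Gi, Gq and G12/13 proteins to phosphatidylinositol 3-kinase, phospholipase C and the RhoA GTPase. The comparison asks whether ovarian transcripts of the receptors that could receive such signals were present, and whether their levels differed after the treatment.

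Libraries held 36037111 to 36568367 counts in PRP and 35568000 to 35825931 counts in control. Markers of the labelled tissue were present in every library: the oocyte genes Zp2 and Zp3, which encode zona pellucida proteins, averaged 825 and 390 CPM in PRP and 701 and 327 CPM in control, and both were higher in PRP in all 3 numbered pairs. The pregranulosa genes Kitl and Wnt4 averaged 337 and 311 CPM in PRP and 378 and 305 CPM in control. Of all 8 pregranulosa markers 6 had a fold change above 0, beside 50.4% of all genes tested. The 8 markers summed to 1000, 1180 and 1170 CPM in PRP and to 1120 CPM in each control. Control 3 stood apart in red blood cell genes, whose summed level was 109 to 225 CPM in the PRP libraries, 108 and 144 CPM in controls 1 and 2, and 1530 CPM in control 3. CPM is the count relative to the library total, scaled by TMM, edgeR's trimmed mean of M-values.

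The receptor genes lie on 7 chromosomes (GRCm38). The 3 protease-activated receptor genes stand in 1 stretch of chromosome 13, spanning 191.1 kb from 95511718 to 95702768, in the order F2rl1 (95511718 to 95525240), F2r (95601780 to 95618466) and F2rl2 (95696920 to 95702768). F2rl2 lies wholly within the span of Iqgap2, on the opposite strand. Lpar6 (chromosome 14, 73237891 to 73240358) likewise lies within the span of the tumour suppressor gene Rb1, on the opposite strand. S1pr2 (chromosome 9, 20965952 to 20976793) lies 6.1 kb from the DNA methyltransferase gene Dnmt1. S1pr3 (chromosome 13, 51408618 to 51422797) overlaps the non-coding gene Gm32834, which had 1 to 8 counts in any library. The others are Lpar1 (chromosome 4, 58435252 to 58554027), Lpar2 (chromosome 8, 69822565 to 69831102), Lpar4 (chromosome X, 106920625 to 106933899) and S1pr1 (chromosome 3, 115710433 to 115715055).

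RefSeq start sites (GRCm38.p6) were matched for 8 of the 10 genes, all but F2rl1 and S1pr1. The 250 bases before the start held from 1 to 28 CG dinucleotides, against a median of 6 over 32841 such windows of the whole table. Among genes with 1 listed start, the windows with the most and the fewest CG dinucleotides are printed in the direction of transcription with each CG in capitals, because they show how far the receptors differ in this, within the thrombin receptor cluster too. F2r held 24 (chr13:95618467-95618716, minus strand), S1pr2 held 14 (chr9:20976794-20977043, minus strand), and F2rl2 (chr13:95696670-95696919, plus strand) and Lpar6 (chr14:73237641-73237890, plus strand) held 1 each.
F2r: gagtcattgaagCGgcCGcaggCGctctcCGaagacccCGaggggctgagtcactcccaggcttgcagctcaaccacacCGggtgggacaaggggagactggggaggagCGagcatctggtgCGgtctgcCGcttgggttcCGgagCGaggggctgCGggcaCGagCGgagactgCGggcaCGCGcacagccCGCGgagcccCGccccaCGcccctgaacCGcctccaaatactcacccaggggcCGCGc
S1pr2: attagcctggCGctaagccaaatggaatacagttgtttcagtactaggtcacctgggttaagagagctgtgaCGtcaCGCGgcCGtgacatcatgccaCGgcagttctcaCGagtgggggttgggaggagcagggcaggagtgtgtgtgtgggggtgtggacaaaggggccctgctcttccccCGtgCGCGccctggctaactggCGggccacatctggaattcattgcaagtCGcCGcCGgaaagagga
F2rl2: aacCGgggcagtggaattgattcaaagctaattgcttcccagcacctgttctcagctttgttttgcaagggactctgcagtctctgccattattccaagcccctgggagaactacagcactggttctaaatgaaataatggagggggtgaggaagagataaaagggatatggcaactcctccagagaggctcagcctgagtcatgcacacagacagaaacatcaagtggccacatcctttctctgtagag
Lpar6: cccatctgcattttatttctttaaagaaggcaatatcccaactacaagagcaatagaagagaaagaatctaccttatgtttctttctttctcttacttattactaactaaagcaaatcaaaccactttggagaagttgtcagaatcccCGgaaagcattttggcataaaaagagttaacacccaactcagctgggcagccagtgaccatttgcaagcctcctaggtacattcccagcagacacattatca
The windows of Lpar2, S1pr3 and Lpar4 held 11, 9 and 3 CG dinucleotides, and the 3 listed starts of Lpar1 held 11, 28 and 3. F2r, with its CG-rich window, and F2rl2, with its CG-poor one, lie 78.5 kb apart from gene to gene, and they ranked 1 and 9 of 10 in transcript level. Other members were ordered otherwise, with Lpar4 (3 CG dinucleotides) ranked 6 and Lpar2 (11) ranked 7. A link between CG count and transcript level was not tested. A count of letters in these windows is a description and says nothing of which factors act there.

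Levels can be set side by side between genes only per length, so CPM was divided by the length in kilobases of all annotated exons of each gene. F2r, the main thrombin receptor of this group, had the highest level, at 30.1 ± 4.96 CPM per kilobase in PRP and 31.1 ± 4.35 CPM per kilobase in control (SD, n = 3 each). Its level averaged 67.8 times that of F2rl1, the lowest, which had 0.46 ± 0.0941 CPM per kilobase in PRP and 0.444 ± 0.076 in control. The 6 libraries of F2r, at 26.7 to 36.1 CPM per kilobase, lay wholly above those of every other member. Next came S1pr1, the Gi-coupled S1P receptor known best from endothelium, with 13.3 ± 0.643 CPM per kilobase in PRP and 12.8 ± 0.741 in control. Lpar1, a widely expressed LPA receptor, had 12.2 ± 1.18 CPM per kilobase in PRP and 10.7 ± 1.85 in control. S1pr3, an S1P receptor that also couples to Gq and G12/13, had 10.3 ± 1.45 CPM per kilobase in PRP and 9.99 ± 0.632 in control. The ranges of S1pr1 and Lpar1 overlapped, as did those of Lpar1 and S1pr3, whereas S1pr1 (12.3 to 13.7) lay above S1pr3 (8.79 to 11.7) in all libraries.

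S1pr2, an S1P receptor that couples mainly to G12/13 and RhoA, had 7.16 ± 0.624 CPM per kilobase in PRP and 7.2 ± 1.0 in control. With all exons (7971 bases) it overlapped neither neighbour in the order. Its longest transcript has 6394 bases, which raises its level toward S1pr3, so the separation from S1pr3 depends on the length used. Lpar4, an LPA receptor of the purinergic receptor branch, had 3.64 ± 0.435 CPM per kilobase in PRP and 3.59 ± 0.552 in control. Lpar2, a close relative of Lpar1, had 2.57 ± 0.324 CPM per kilobase in PRP and 2.75 ± 0.199 in control. Lpar6, another receptor of the purinergic branch, had 2.74 ± 0.0537 in PRP and 2.54 ± 0.342 in control. The GENCODE exon length used for Lpar6 was 5400 bases, longer than its whole RefSeq span of 2468 bases. Its level per kilobase and its place in the order therefore depend on the annotation, and the shorter length would raise both. F2rl2 had 1.85 ± 0.478 CPM per kilobase in PRP and 2.47 ± 0.484 in control. The ranges of Lpar2, Lpar6 and F2rl2 overlapped, so their order among themselves is not separated by the spread over libraries. With the longest transcript in place of all exons, Lpar1 stood above S1pr1.

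**Figure D1:**
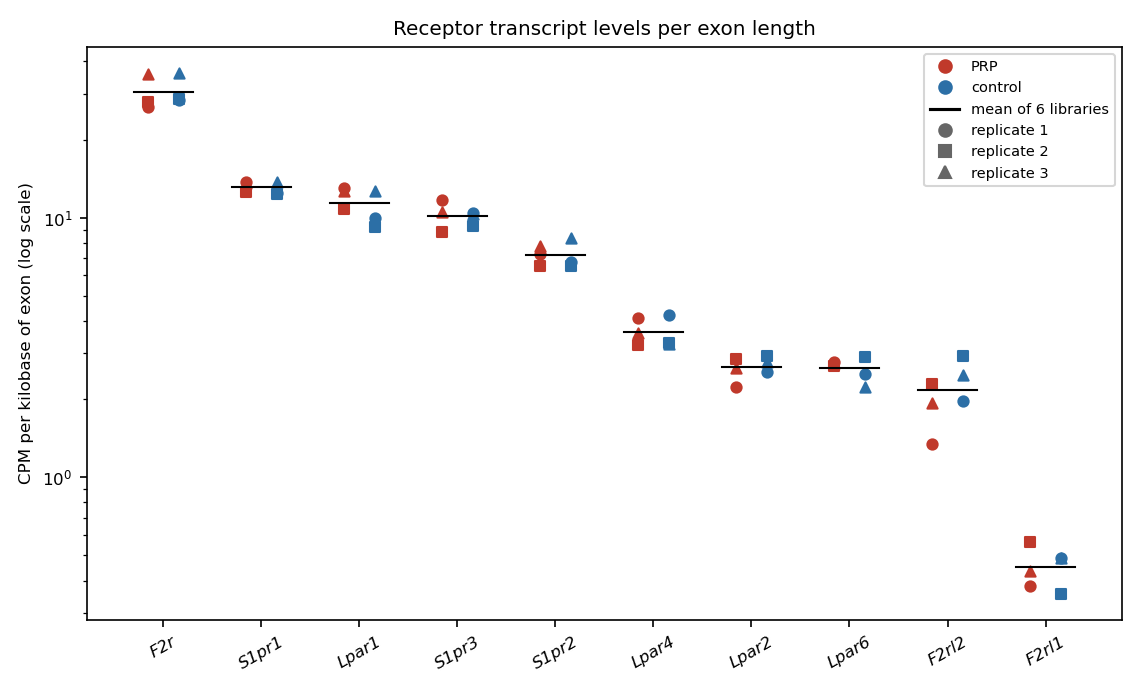
Transcript levels of the 10 receptor genes in CPM per kilobase of annotated exon (log scale), ordered by their mean over the 6 libraries; red symbols are PRP libraries, blue symbols are control libraries, and the bar is the mean of all 6. F2r lies alone at the top (26.7 to 36.1) and F2rl1 alone at the bottom (0.356 to 0.564), and within each gene the PRP and control symbols overlap.

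Within the classes, F2r made up 92.8% ± 1.81 of the summed protease-activated receptor level in PRP and 91.4% ± 1.44 in control (SD, n = 3 each). Lpar1 made up 57.5% ± 2.0 of the LPA receptor level in PRP and 54.3% ± 5.62 in control. These LPA shares depend on the annotated length of Lpar6, and would be lower for Lpar1 with the shorter RefSeq span. The S1P class was divided more evenly, with S1pr1 at 43.3% ± 1.59 in PRP and 42.8% ± 1.0 in control, S1pr3 at 33.4% ± 2.14 in PRP and 33.3% ± 1.74 in control, and S1pr2 at 23.3% ± 1.11 in PRP and 23.9% ± 1.69 in control. The remaining genes of these families had few counts, and they were left out of the shares above. F2rl3, which encodes PAR4, had 35, 19 and 20 counts in PRP and 20, 16 and 10 in control, and Lpar3 had 22, 14 and 13 in PRP and 10, 24 and 16 in control. Lpar5, S1pr4 and S1pr5 had at most 7, 15 and 1 counts in any library and were too low to test.

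No receptor gene passed the test of PRP against control. The test was edgeR's quasi-likelihood F test over 17475 genes with Benjamini-Hochberg adjustment at 0.05. It called 0 of the 10 receptors, where the background over all genes was 0% as well, and the adjusted p was 0.9998 for each. At an unadjusted p under 0.05 there were 0 receptors, beside 557 of all genes (3.19%). Neither DESeq2 (0 genes after adjustment, 589 before) nor limma-voom (0 and 564) picked out a receptor at either level. The log2 fold changes (PRP minus control) ran from -0.41 to 0.19 with a median of 0.033, and the median over all genes tested was 0.001. The 2 groups of libraries overlapped for every receptor, and they did not overlap in 9.21% of all genes tested. For 10 genes a count of 0 is close to that share and does not set the receptors apart. Since the samples were whole ovaries, fewer cells of a type and less RNA per cell cannot be told apart in any of these values.

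The labels number the libraries 1 to 3 in each group without saying that the numbers pair them, but same-numbered libraries deviated together. With the replicate number as a block, edgeR called 21 of 17475 genes (0.12%) and again 0 of the 10 receptors, the smallest adjusted p among them being 0.321. The 21 genes included 2 of 10 oocyte markers, Zp2 (edgeR adjusted p = 0.0331 with the block) and Zp3 (0.0411), with log2 fold changes of 0.23 and 0.24 in that fit. Of the 10 oocyte markers 9 had a fold change above 0, beside 50.4% of all genes tested. These 10 markers summed to 2590, 1780 and 2280 CPM in PRP and 2280, 1640 and 2010 CPM in control. Their part in the receptor values was not tested. At an unadjusted p under 0.05 the block gave 2 receptors, Lpar1 and F2rl2, beside 11.2% of all genes. For 3 receptors the PRP library was the lower in each of the 3 pairs, and for none was it the higher in each. A single direction in all pairs was seen in 33.1% of all genes tested.

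**Figure D2:**
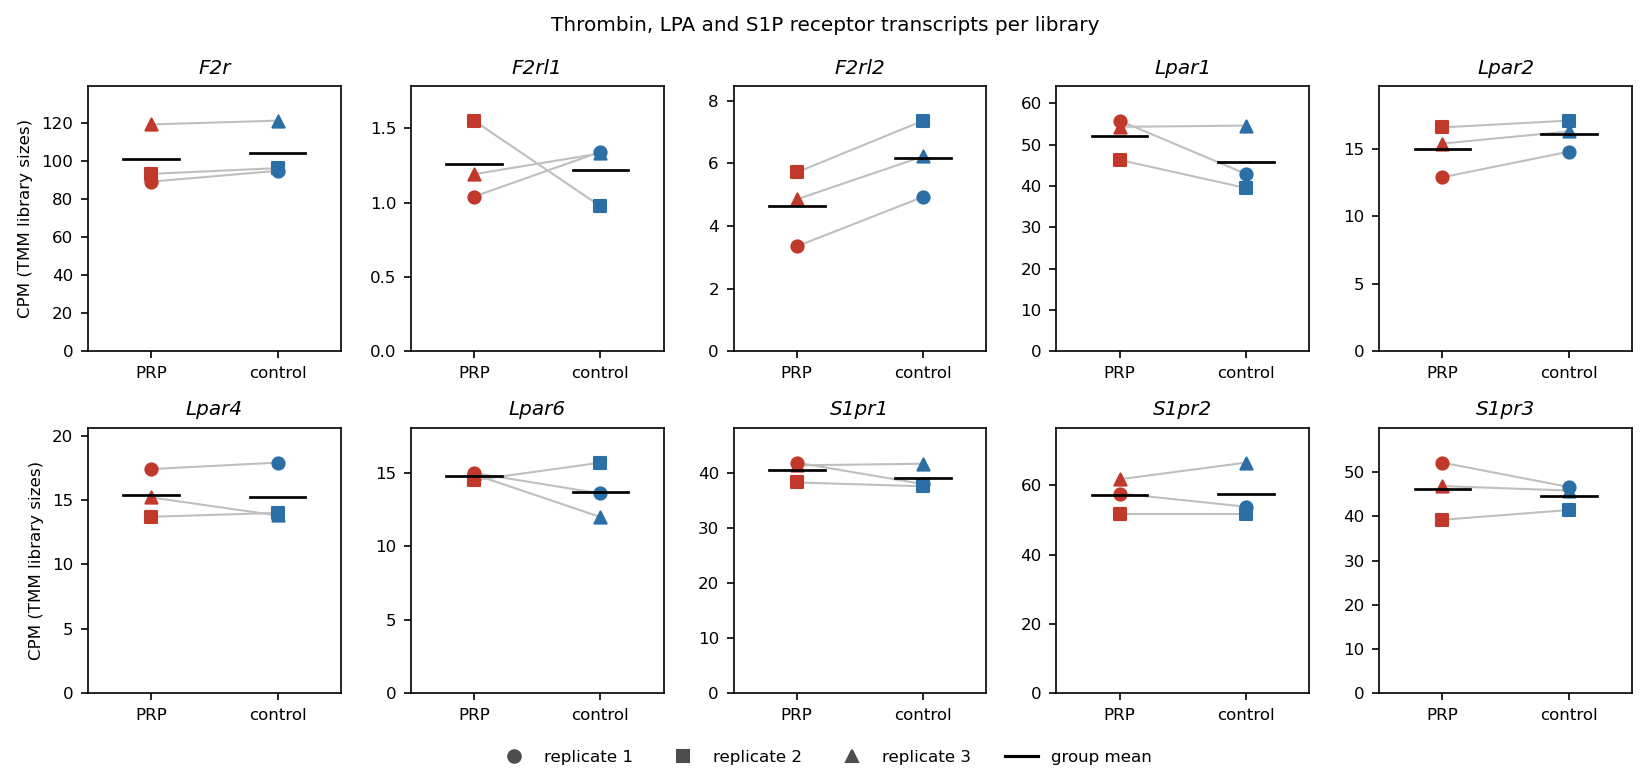
CPM of each receptor gene in the 3 PRP libraries (red, left) and the 3 control libraries (blue, right), with lines joining libraries of the same replicate number and a black bar for each group mean; every axis starts at 0. The groups overlap in all 10 panels, and the lines for F2rl2 all run lower in PRP (3.35, 5.71 and 4.85 CPM) than in control (4.93, 7.36 and 6.22 CPM).

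F2r had 89.0, 93.1 and 119 CPM in PRP 1, 2 and 3, against 94.7, 96.1 and 121 CPM in control 1, 2 and 3. The third library of each group was the high one, and the groups overlapped almost entirely. The log2 fold change was -0.05 ± 0.14 (SE), with a 95% interval of 0.78- to 1.2-fold, and with the block the interval narrowed to 0.90- to 1.04-fold. The PRP library was the lower of its pair each time, by 0.09, 0.05 and 0.01 on the log2 scale.

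F2rl2 had the lowest fold change of the group. Its levels were 3.35, 5.71 and 4.85 CPM in PRP (122, 207 and 175 counts), against 4.93, 7.36 and 6.22 CPM in control (177, 264 and 219 counts). Control 1 lay between the PRP libraries, so the groups overlapped, but each PRP library lay below the control of its own number. The log2 fold change was -0.41 ± 0.25 (SE, interval 0.51- to 1.11-fold, edgeR adjusted p = 0.9998). With the block it was -0.42 ± 0.18 (edgeR adjusted p = 0.375), with pair differences of -0.55, -0.36 and -0.36. The strand setting of the counting is not given in the sources used here, so reads from Iqgap2, a scaffold protein gene around F2rl2, cannot be told apart from its own where the transcripts overlap. Iqgap2 had 11.6, 15.1 and 17.8 CPM in PRP and 15.5, 15.1 and 18 CPM in control. Its pair differences were -0.41, 0.00 and -0.02, so that the first pair was the low one in both genes. The part of those reads in the F2rl2 values was not tested.

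F2rl1 had 1.04, 1.55 and 1.19 CPM in PRP, against 1.34, 0.975 and 1.33 CPM in control. These are 38, 56 and 43 counts in PRP and 48, 35 and 47 counts in control, and the pairs differed in both directions. The 95% interval of the unpaired fit ran from 0.60- to 1.79-fold, the widest of the 10 receptors on the log2 scale.

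Lpar1 had the highest fold change of the group. Its levels were 55.8, 46.3 and 54.3 CPM in PRP, against 42.9, 39.5 and 54.6 CPM in control. The PRP library was the higher in pairs 1 and 2, while pair 3 was level, since control 3 reached the PRP range. The log2 fold change was 0.19 ± 0.13 (SE, interval 0.93- to 1.4-fold, edgeR adjusted p = 0.9998). With the block it was 0.20 ± 0.08 (interval 1.03- to 1.28-fold, edgeR adjusted p = 0.321), and the pair differences were 0.38, 0.23 and -0.01. Without a single library the unpaired log2 fold change of Lpar1 ran from 0.098 (without control 2) to 0.339 (without control 3). The summed level of 9 stromal genes was higher in PRP in each numbered pair, at 9680, 8080 and 9720 CPM in PRP and 8230, 7510 and 9270 CPM in control. Of these 9 genes, 8 had a fold change above 0 (50.4% of all genes tested), and none of the 9 had 0 counts throughout. Stroma did not stand alone, since 8 mural markers summed to 452, 357 and 441 CPM in PRP and 373, 325 and 427 CPM in control. The sums of oocyte, surface mesothelium, macrophage and platelet markers were also higher in PRP in each pair, and those of pregranulosa, endothelial and red cell markers were not. The part of any cell type in the Lpar1 values was not tested.

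The other LPA receptors showed smaller differences. Lpar2 had 12.9, 16.6 and 15.4 CPM in PRP, against 14.8, 17.1 and 16.3 CPM in control, a log2 fold change of -0.10 ± 0.13 (SE). Each PRP library lay below its numbered control, but by only 0.20, 0.04 and 0.08 on the log2 scale, and the second library was the highest in both groups. Lpar4 had 17.4, 13.7 and 15.2 CPM in PRP, against 17.9, 14 and 13.8 CPM in control, a log2 fold change of 0.02 ± 0.15 (SE). The first library was the high one in both groups. Lpar6 had 15, 14.5 and 14.9 CPM in PRP, against 13.6, 15.7 and 12.0 CPM in control, a log2 fold change of 0.11 ± 0.13 (SE). The PRP libraries of Lpar6 stood close together, inside the wider range of the controls. Rb1, which spans Lpar6 on the other strand, had 56.3, 55.6 and 55.5 CPM in PRP and 55.9, 51.3 and 68.5 CPM in control, with control 3 the highest for Rb1 and the lowest for Lpar6.

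The S1P receptors had log2 fold changes of -0.01 to 0.05. S1pr1 had 41.9, 38.3 and 41.4 CPM in PRP, against 38.0, 37.6 and 41.7 CPM in control, and its 6 libraries lay within 1.11-fold of one another. Its log2 fold change was 0.05 ± 0.08 (SE), with a 95% interval of 0.91- to 1.18-fold. The 9 endothelial markers summed to 406, 350 and 442 CPM in PRP and 373, 365 and 428 CPM in control. S1pr2 had 57.6, 51.8 and 61.7 CPM in PRP, against 53.8, 51.8 and 66.5 CPM in control, with a log2 fold change of -0.01 ± 0.11 (SE, interval 0.84- to 1.18-fold). As for F2r, the third library was the highest of each group. S1pr3 had 52.1, 39.2 and 46.8 CPM in PRP, against 46.6, 41.4 and 45.8 CPM in control, with a log2 fold change of 0.05 ± 0.11 (SE, interval 0.87- to 1.23-fold). Its first library was the highest and its second the lowest in both groups.

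**Figure D3:**
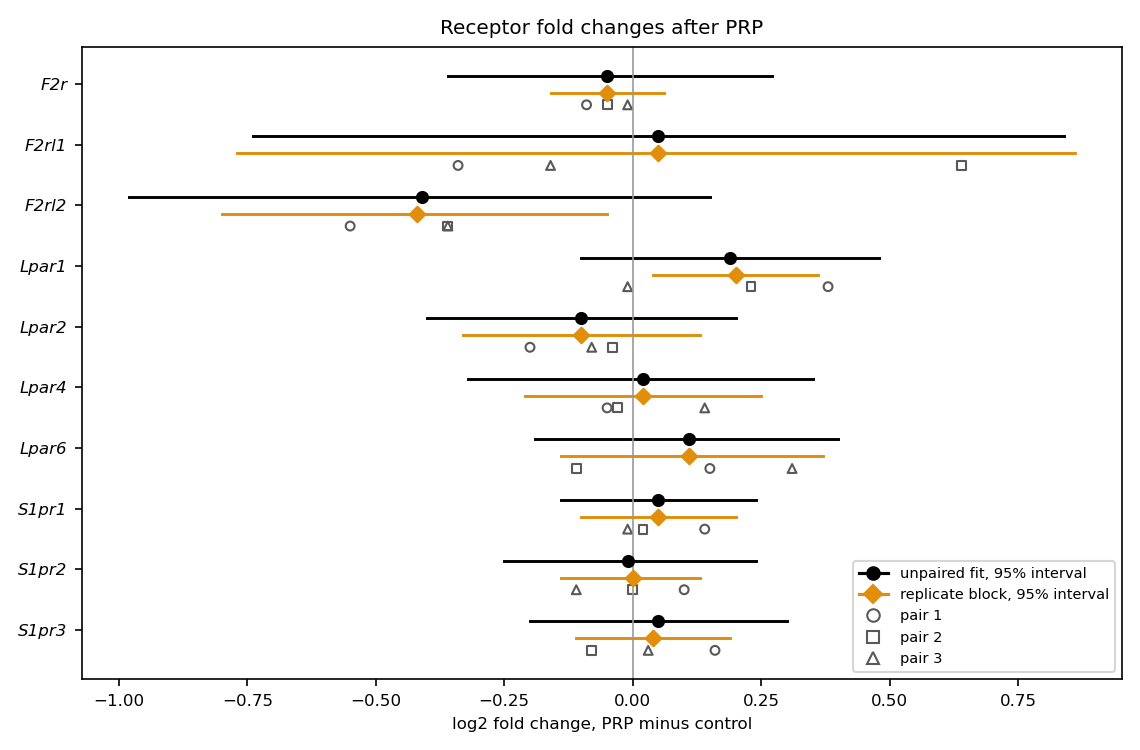
Log2 fold change (PRP minus control) of each receptor gene with its 95% interval without pairing (black) and with libraries blocked by number (orange); open symbols are the differences within the 3 numbered pairs. All 10 unpaired intervals span 0, and with the block 8 span 0 while those of F2rl2 (-0.80 to -0.05) and Lpar1 (0.04 to 0.36) do not, although neither gene passed after adjustment.

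In many receptors the extreme library had the same replicate number in both groups. The same number held the highest library of both groups in 6 of the 10 genes and the lowest in 7. The matching shares over all genes were not counted. Same-numbered libraries deviated together over 11165 genes too (correlations of 0.49, 0.65 and 0.57), so the 2 counts do not set the receptors apart. For F2r and S1pr2 it was number 3 that was highest, for F2rl2 and Lpar2 number 2, and for Lpar4 and S1pr3 number 1. What the number stands for (a culture, a day or a litter) is not in the labels.

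Genes with the closest profiles were looked up for the most abundant member of each class by CPM. Likeness was the root mean square difference between log2 CPM profiles, each centred on its mean over the 6 libraries, among 11164 genes with a mean log2 CPM above 3. Closest to F2r were Erc1 (0.027), Samhd1 (0.034) and Snapc5 (0.037), where the median over all candidates was 0.201. Erc1 had 80.5, 83.5 and 104 CPM in PRP and 82.8, 87.2 and 105 CPM in control, so it too was high in the third libraries. Closest to Lpar1 were Tnc (0.028), Cercam (0.033) and Col6a3 (0.042), with a median of 0.219. Tnc, which encodes the matrix protein tenascin C, had 132, 106 and 126 CPM in PRP and 97.6, 93.4 and 131 CPM in control. Col6a3 encodes a chain of collagen VI. Closest to S1pr2 were Shisa5 (0.016), Pabpc4 (0.019) and its chromosomal neighbour Dnmt1 (0.022), with a median of 0.17. Dnmt1 had 354, 323 and 374 CPM in PRP and 336, 319 and 398 CPM in control, and it is transcribed from the same strand. Whether transcripts running from 1 gene into the other enter these counts was not tested. Among the members themselves, S1pr2 ranked 273 of 11164 in likeness to F2r, while Lpar1 ranked 4858. S1pr2 ranked 371 of 11164 in likeness to Lpar1. F2rl2 and F2rl1 lay below the minimum level for that ranking, and their differences from F2r were 0.342 and 0.257.

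The genes around the receptors were read from 6 lists that cover thrombin and its control, LPA and S1P metabolism, G proteins and their effectors, desensitisation, and transcriptional targets of RhoA. Of 114 listed genes 104 could be tested. In edgeR 0 of the 104 rose and 0 fell, without the block and with it, beside 0% and 0.12% called over all genes. At an unadjusted p under 0.05 there were 3 of 104 without the block and 12 of 104 with it, beside 3.19% and 11.2% of all genes. The median log2 fold change over the 104 was 0.006, and the groups did not overlap in 4 of them, namely Arhgef12, Tiam1, Ackr3 and Ccn1, beside 9.21% of all genes. A fold change above 0 was seen in 55 of the 104, beside 50.4% of all genes tested. That share is the background for the count given for each list below.

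Among 12 tested genes of thrombin generation and control, 8 had a fold change above 0 and the median log2 fold change was 0.09. Tfpi2, an inhibitor of serine proteases, had 3.35, 4.31 and 3.43 CPM in PRP and 3.09, 4.79 and 8.35 CPM in control. Control 3 was the high library of Tfpi2, and the log2 fold change of -0.55 ± 0.34 (SE) was -0.09 without it. Gas6, a vitamin K-dependent ligand of TAM receptors, had 804, 713 and 800 CPM in PRP and 726, 631 and 797 CPM in control, a log2 fold change of 0.11 ± 0.09 (SE). F2rl3 had a log2 fold change of 0.66 ± 0.51 (SE), on the few counts given above, and 0.33 without PRP 1.

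Of 14 tested LPA genes 8 had a fold change above 0, with a median of 0.01. Liph, a phospholipase that makes LPA, had 1.54, 2.46 and 3.32 CPM in PRP and 2.98, 3.68 and 3.89 CPM in control, a log2 fold change of -0.53 ± 0.31 (SE), and -0.28 without PRP 1. Pla1a, a phospholipase specific for phosphatidylserine, had 9.86, 7.81 and 9.75 CPM in PRP and 8.78, 5.77 and 7.64 CPM in control, a log2 fold change of 0.31 ± 0.20 (SE). Each was on 1 side in all 3 pairs, lower in PRP for Liph and higher for Pla1a, and the groups overlapped in both. Plpp1, a phosphatase that degrades lipid phosphates, had a log2 fold change of 0.08 ± 0.10 (SE).

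Of 12 tested S1P genes 7 had a fold change above 0, with a median of 0.02. Mfsd2b, the S1P exporter of red cells and platelets, had 1.48, 1.24 and 1.72 CPM in PRP and 3.01, 1.62 and 10.7 CPM in control. Its log2 fold change of -1.79 ± 0.67 (SE, edgeR adjusted p = 0.9998) was the lowest of the list, and without control 3 it was -0.64. Control 3 is the library in which red blood cell genes summed to 1530 CPM, and 5 of 5 tested red cell markers were highest there. Their part in the Mfsd2b value was not tested. Asah2, a ceramidase, and Cers2, a ceramide synthase, had log2 fold changes of -0.17 ± 0.13 and 0.06 ± 0.06 (SE).

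Of 30 G protein and effector genes 9 had a fold change above 0, with a median of -0.03. Arhgef12, a RhoA exchange factor that G12/13 activates, had 258, 255 and 252 CPM in PRP, against 292, 261 and 294 CPM in control. The PRP libraries all lay below the controls, by little in the second pair, and the log2 fold change was -0.15 ± 0.06 (SE, edgeR adjusted p = 0.9998 and, with the block, 0.246). Tiam1, a Rac exchange factor, had 57.1, 55.2 and 56.0 CPM in PRP and 62.9, 59.8 and 59.8 CPM in control, a log2 fold change of -0.12 ± 0.07 (SE). Pik3cg, the phosphatidylinositol 3-kinase subunit that Gβγ activates, had 1.59, 1.32 and 2.24 CPM in PRP and 2.04, 1.81 and 4.17 CPM in control, with control 3 again the high library. Its log2 fold change was -0.63 ± 0.39 (SE), and -0.16 without control 3.

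Of 18 tested desensitisation genes 12 had a fold change above 0, with a median of 0.05. The list holds receptor kinases, arrestins and RGS proteins, and also Ackr3 and Snx1. Ackr3, an atypical chemokine receptor that recruits arrestin, had 24.4, 31.2 and 28 CPM in PRP, against 31.5, 31.6 and 37.6 CPM in control, a log2 fold change of -0.27 ± 0.12 (SE). Its groups did not overlap, but PRP 2 was nearly level with controls 1 and 2. The receptor kinase gene Grk6 and the sorting nexin gene Snx1 had log2 fold changes of 0.11 ± 0.08 and 0.09 ± 0.08 (SE).

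Of 19 tested RhoA targets 11 had a fold change above 0, with a median of 0.00. Ccn1, an early matricellular target of RhoA and YAP, had 62.5, 62.8 and 70.7 CPM in PRP, against 39.0, 32.6 and 62.3 CPM in control. All PRP libraries lay above the controls, but control 3 was nearly level with PRP 1. The log2 fold change was 0.55 ± 0.23 (SE, edgeR adjusted p = 0.9998 and, with the block, 0.348). In the blocked fit without pair 3 the adjusted p of Ccn1 was 0.00204 in edgeR, with a log2 fold change of 0.813. It was the 1 pathway gene among 19 of 17719 genes (0.107%) called there. In the blocked edgeR fits without pair 1 and without pair 2 the adjusted p of Ccn1 was 0.78 and 0.33. Ccn2, a related matricellular gene, had 41.3, 35.1 and 40.7 CPM in PRP and 29.7, 23.8 and 39.0 CPM in control. Tagln, an actin-binding protein of contractile cells, had 31.3, 28.7 and 38.2 CPM in PRP and 21.5, 20 and 35.9 CPM in control. In each of these 3 genes, as in Lpar1, pairs 1 and 2 differed more than pair 3. The summed level of 8 mural cell markers was 452, 357 and 441 CPM in PRP and 373, 325 and 427 CPM in control, and its part in the Tagln values was not tested.

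**Figure D4:**
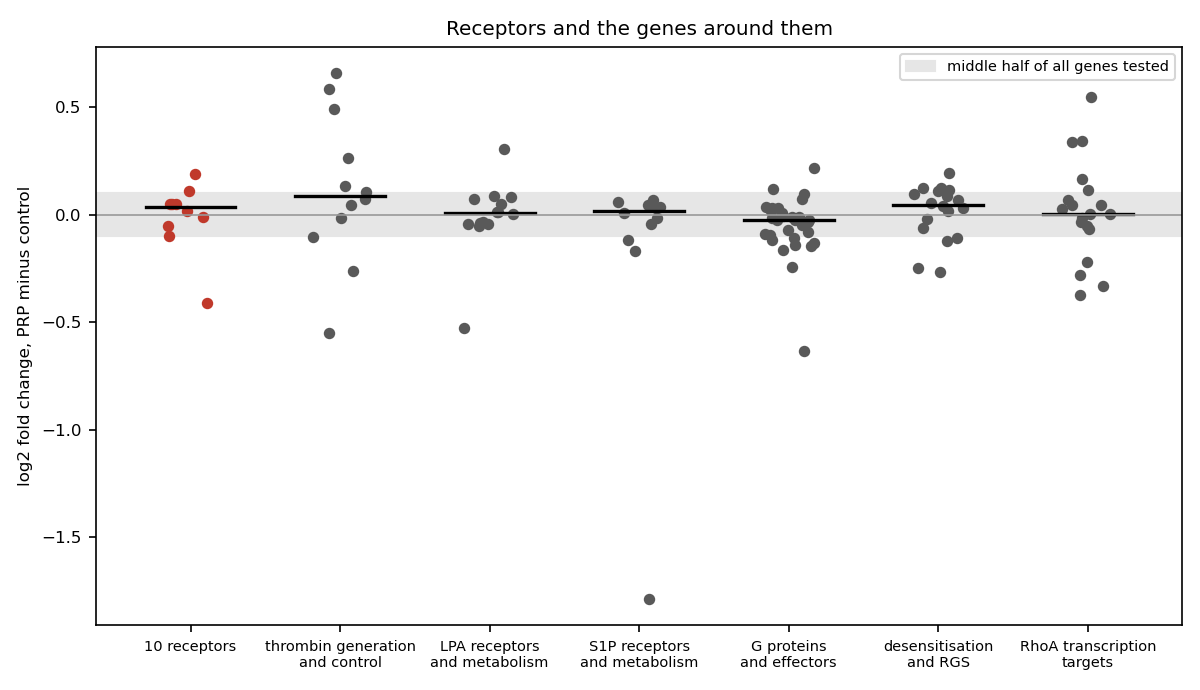
Log2 fold change (PRP minus control) of the 10 receptor genes (red) and of the tested members of the 6 lists around them (grey), with a black bar at each median; the shaded band runs between the quartiles of all 17475 genes tested (-0.10 to 0.101). The receptor median of 0.033 and the list medians of -0.03 to 0.09 all lie inside the band, and the lowest point is Mfsd2b (-1.79).

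Other cell types were read from their markers. Of 8 platelet markers, 2 passed the filter on low counts: Pf4 averaged 4.17 ± 1.29 CPM in PRP and 2.98 ± 0.524 CPM in control, and Itga2b 2.74 ± 0.316 CPM in PRP and 2.15 ± 0.657 CPM in control (SD, n = 3 each). Macrophage markers summed to 65.1 to 75.6 CPM in PRP and 61.1 to 73.6 CPM in control, and surface mesothelium markers to 441 to 532 CPM in PRP and 414 to 460 CPM in control. Of these 9 mesothelium markers 8 had a fold change above 0, beside 50.4% of all genes tested. At an unadjusted p under 0.05 in edgeR there were 2 of the 9 without the block and 5 with it, beside 3.19% and 11.2% of all genes. Mesothelium did not stand alone in this, since the counts were 2 and 8 of 9 stromal markers and 1 and 5 of 8 mural markers. Of the 9 endothelial markers there were 0 in either fit. The keratin gene Krt19, named after its values were seen, was called higher in PRP with the block (log2 fold change 0.36, edgeR adjusted p = 0.0331) and not without it (adjusted p = 0.9998).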

How the data were processed

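The deposited table holds raw counts for 27098 gene symbols in 6 ovary libraries. The submitters' processing notes name GRCm38/mm10 as build, and the sources used here do not name an aligner, a counter or a strand setting. Columns were matched to samples by title, and the column whose letters are transposed (PPR3) was taken as PRP 3, the title left without a column. Pairs of libraries differed beyond counting noise (chi-square per degree of freedom 8.9 to 32), so none was a duplicate. No label ties replicates to separate cultures or animals. All p-values therefore rest on a spread among samples that may be technical.

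PRP and control counts were compared in R 4.3.3 with edgeR 4.0.16 (filterByExpr, TMM, robust quasi-likelihood F test, 17475 genes, two-sided), as PRP minus control, with Benjamini-Hochberg adjustment at 0.05. Each standard error is the log2 fold change divided by the root of its F statistic. Pair differences used log2 CPM with a prior count of 2. The procedure was checked on simulated data. Over 11165 genes, each library's deviations from its group mean were correlated across groups. Same-numbered pairs gave 0.49, 0.65 and 0.57 and all others -0.02 or below. Deviations from a group mean sum to 0 over its libraries, so low values for the other pairs follow in part from the high ones. The main test left the libraries unpaired. The numbers were used as pairs only in the blocked fits and the pair differences, on this check alone, since no label states a pairing. The check used the same counts as those fits. Exon lengths came from GENCODE M21, and gene spans and start-site windows from RefSeq, matched by Entrez identifier.

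Named genes were the 10 receptors, the 3 genes of each list with the smallest unadjusted p where none passed, the 3 closest profiles, and the 2 most abundant genes of each marker list. The members and lists were chosen with earlier results of these data known. Alternatives were DESeq2 1.42.0, limma-voom (limma 3.58.1), other scaling factors and filters, the block, and leaving out each library or pair.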

Additional observations from a re-analysis of the deposited data

How the results depend on the processing

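Counts of called receptors stayed at 0 under every alternative run. Blocking by replicate number, for the pairing, gave 21 called genes in place of 0, and 1 to 19 when a numbered pair was also left out; without any single library the count was 0. Pathway genes called were 0 to 1 in the blocked fits without a pair, the 1 being Ccn1 without pair 3. The cause was not tested. The order of levels per kilobase kept 8 of 10 places with the longest transcript in place of all exons, where the lengths used are the cause, and 8 to 10 places without a single library, the 8 being without PRP 2 and without control 3. Fold changes near 0 had no fixed sign, and each of the following is a log2 value. With upper-quartile factors S1pr2 was 0.002. Leaving out single libraries gave -0.189 to 0.076 for F2r, -0.121 to 0.171 for F2rl1, -0.075 to 0.15 for Lpar4, -0.075 to 0.112 for S1pr2 and -0.05 to 0.151 for S1pr3. In the blocked fit without a pair the values were -0.26 to 0.247 for F2rl1, -0.039 to 0.055 for Lpar4, -0.055 to 0.05 for S1pr2 and -0.022 to 0.098 for S1pr3. F2rl2 stayed below 0 (-0.589 to -0.224 without a library) and Lpar1 above 0 (0.098 to 0.339). Of the 18 named pathway genes, 16 had a log2 fold change that moved by over 1.5 times without some single library, the exceptions being Arhgef12 and Tiam1. The lowest receptor, F2rl1, rests on 35 to 56 counts a library.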
